A study of Mus musculus with 26 samples.

Results

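OT-1 and TG6 thymocytes were compared at late positive selection, the CD4+CD8+CXCR4-CCR7+ stage, across all genes that reached a normalized count of 10 in 2 or more libraries. The comparison used 5 of the 26 libraries of the series, 3 from OT-1 and 2 from TG6. The filter was applied over all 26 libraries, and 16372 of 46517 gene symbols passed it. Applied within the 5 libraries compared, it kept 14529 genes. OT-1 thymocytes came from OT-1tg Rag2KO mice on a C57/BL6 strain and carry a T cell receptor (TCR) of high self-reactivity. TG6 thymocytes came from TG6tg H2b/d mice (C57/BL6 x B6.C-H2d/bByJ), which are Rag-sufficient and carry a TCR of low self-reactivity. Mice were 3 to 10 weeks old. Each line carries a single transgenic TCR, both are restricted to class I of the major histocompatibility complex (MHC), and the lines differ in the H2 haplotype, in Rag2 and in the origin of the mice as well as in the receptor, so that these cannot be told apart. The OT-1 mice carry the Rag2tm1Fwa allele of a B6.129S6 line. The age and the number of mice behind each library are not given in the sources used here, so p-values measure the spread between libraries. Thymocytes of F5, a line of intermediate self-reactivity (F5tg Rag1KO, C57/BL6), had 3 libraries at this stage and are given for reference.

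A thymocyte that bears both CD4 and CD8 is tested on self-peptides held by MHC molecules. A TCR that binds weakly lets the cell survive, in a process called positive selection, and the cell then stops expressing CXCR4, gains CCR7, moves to the medulla and, when its TCR sees class I, becomes a CD8 single-positive (CD8SP) T cell. CD5 and CD6 are surface receptors that dampen TCR signals, and CD5 is known for rising with the strength of self-recognition.

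Normalized counts are the reads assigned to a gene after scaling of each library to the others. They summed to 17593108 to 17956066 in the OT-1 libraries and to 16134786 and 16255430 in the TG6 libraries. Libraries of 1 group correlated at 0.971 to 0.976 across genes on the log2 scale, and libraries of different lines at 0.943 to 0.948. Rag2, the gene disrupted in OT-1, had 9.39, 11.1 and 5.37 normalized counts in OT-1 and 14 and 5.95 in TG6, so that its level at this stage did not separate the lines. Of the genes for the sorting markers, Cd4 had 1963, 1455 and 4103 normalized counts in OT-1 and 4084 and 4089 in TG6. Cxcr4 had 756, 350.1 and 1432 against 1133 and 1024, and Ccr7 had 10456, 10976 and 7279 against 7585 and 8519. The lines overlapped in all 3 genes, and OT-1 replicate 3 had the highest Cd4 and Cxcr4 and the lowest Ccr7 of its group. The TCR transcripts separated the lines, as Trbv1 was listed at 0 in each OT-1 library and at 20107 and 20302 in TG6.

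limma called 2545 of the 16372 genes (15.5%) at an adjusted p-value under 0.05, 1529 higher in OT-1 (9.34%) and 1016 lower (6.21%). The median log2 fold change over all genes was 0.00. After scaling every library to 1 common total, this median moved to -0.13, and 1087 genes were called higher and 1715 lower. Without regard to the test, every OT-1 library lay above both TG6 libraries in 4558 genes (27.8%) and below both in 3970 (24.2%). The TG6 group had only 2 libraries. With TG6 replicate 1 left out 1270 genes were called, and with TG6 replicate 2 left out 1100, where the remaining library was assumed to vary like the other groups. The samples were bulk RNA, in which fewer cells of a type and less RNA per cell cannot be told apart.

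TCR segments and unnamed clones apart, the highest fold change in OT-1 was that of Mme, which encodes neprilysin (CD10), a membrane peptidase. It had 7672, 7708 and 8101 normalized counts in OT-1 and was listed at 0 in both TG6 libraries. Set against a floor of 3 normalized counts, it was at least 2610-fold higher in OT-1 (adjusted p = 4.5e-13). In F5 it had 2.87 to 16.6. Plch1, a phospholipase C gene that lies close to Mme on chromosome 3 (Mme at chr3:63241537-63386030, Plch1 at chr3:63696234-63899472, GRCm38), had 241, 190.5 and 262 in OT-1 against 0 and 1.78, at least 77.1-fold higher. Ltk, a receptor tyrosine kinase gene, had 149, 98.0 and 103 against 0 in both TG6 libraries, at least 38.9-fold higher. All 3 genes were at or below 16.6 normalized counts in every F5 library.

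Among the other genes with large rises was a chemokine receptor of memory and regulatory T cells, Ccr8, with 865, 593 and 1017 normalized counts in OT-1 and 13.7 and 35.4 in TG6 (log2 fold change 5.12 ± 0.46 SE, adjusted p = 7.9e-08). Plac8, a small cysteine-rich protein, had 2077, 1598 and 1982 against 76.7 and 64.5. Cd163l1, a scavenger receptor gene of the WC1 family, had 7058, 7008 and 5923 against 748 and 284, and the odorant receptor gene Olfr524, its near neighbour on chromosome 7, had 586, 646 and 431 against 32.3 and 5.9. The transcription factor genes Sox13, Hes1 and Fosl2 belonged to the same set. Sox13 had 2588, 1933 and 3616 against 165 and 148, and Hes1, a Notch target, had 370.1, 272 and 314 against 18.1 and 14.4. Fosl2, an AP-1 subunit, had 6731, 7725 and 1526 against 257 and 338, so that OT-1 replicate 3 lay far below the other two of its group. The rest of the top 15 were Cenpf, Rbpms, Acsbg1, Ybx3 and mt-Co2. The mt-Co2 call rested on TG6 libraries with 1660.1 and 1.97 normalized counts.

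Among the genes far lower in OT-1 was Prss2, a trypsin gene that lies within the TCR beta locus on chromosome 6, with 1.04, 0 and 0 normalized counts in OT-1 and 256 and 242 in TG6 (at least 83-fold lower). The homeobox gene Hoxc9 had 3.9, 0.987 and 5.73 against 236 and 229.8. Pcsk1, a proprotein convertase, had 16, 23.4 and 13.7 against 538 and 637 (32.1-fold lower, adjusted p = 1.2e-06). Slc6a19, a transporter of neutral amino acids, had 63.1, 57.5 and 39.5 against 974 and 1364. The collagen receptor gene Ddr1 had 27.5, 31.2 and 35.4 against 385 and 461, and F13a1, a subunit of coagulation factor XIII, had 128, 157 and 156 against 1077 and 1168. Fah did not have the same height in both TG6 libraries (333 and 30.7), nor did Iigp1 (81.3 and 265). H2-Q5, H2-Q6, H2-Q10, Tdrd5, Sqrdl, Nrg2 and Pla2g4b made up the rest of the 15. By the difference of mean levels, the largest fall outside the TCR chains was in Satb1, a chromatin organizer of thymocytes, with 45404 to 46628 in OT-1 and 65376 and 63642 in TG6. Als2cl had 3326, 4020.2 and 3189 in OT-1 and 13729 and 14565 in TG6, and 8844 to 12964 in F5.

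**Figure D1:**
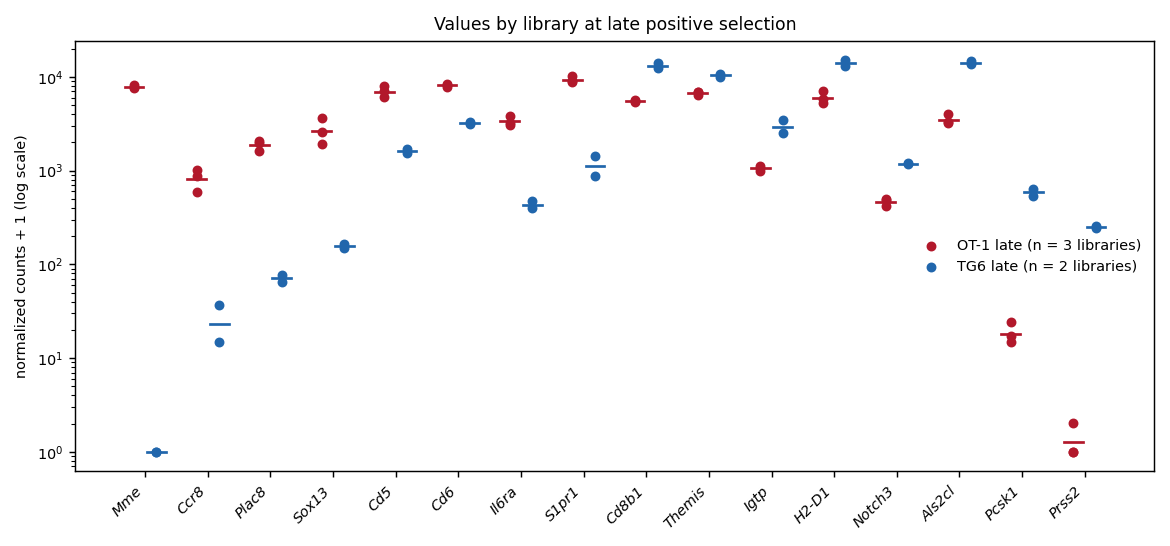
Normalized counts plus 1 (log scale) of 16 genes in the 3 OT-1 and 2 TG6 libraries at late positive selection, with 1 point for each library and a line at the mean of the log values. No gene shown has overlapping lines, and Mme is at 0 in both TG6 libraries while Prss2 is at 0 in 2 of the OT-1 libraries.

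Genes that respond to TCR signals were called higher in OT-1 in 12 of 33 members tested and lower in 2, with a median log2 fold change of 0.82. Cd5 had 7029, 6063 and 7913 normalized counts in OT-1 and 1550.5 and 1703 in TG6, a 4.28-fold difference (adjusted p = 2.8e-07). Cd6 had 8143, 7693 and 8469.9 against 3128 and 3331, with a log2 fold change of 1.33 ± 0.13 SE (adjusted p = 1.8e-07). Each OT-1 library was above both TG6 libraries for both genes. The F5 libraries lay in between for Cd6 (3850.4 to 5987) and for Cd5 (2336 to 4754). The transcription factors Irf4 (log2 fold change 2.44), Ikzf2 (1.28), Tox2 (2.77), Egr1 (1.43) and Nr4a1 (2.38) were also higher in OT-1. Nr4a1, which encodes Nur77 and is induced within hours of TCR ligation, had 13330.5, 9993 and 4592 in OT-1 and 1428 and 1864 in TG6. OT-1 replicate 3 had the lowest Nr4a1 and Egr1 of its group. Nr4a1 (adjusted p = 0.04 in limma) and Egr1 (adjusted p = 0.014) lost the call under 6 and 4 of 17 alternatives. Irf4, Ikzf2 and Tox2 were called under every alternative. The 2 members called lower were Tox (log2 fold change -0.42), a factor of lineage commitment, and Xcl1, which was at 0 in OT-1 and at 4.89 and 4.91 in TG6. Without TG6 replicate 1 or 2, 8 members were called higher in each case, and 1 was called lower there and without OT-1 replicate 2.

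Genes that damp ERK and TCR signals were called higher in 8 of 28 members and lower in 1. The phosphatase gene Dusp2 had 2711, 2467 and 2532 normalized counts in OT-1 and 936 and 859 in TG6. Dusp4 had 841, 742 and 604 against 114 and 106, and Dusp10 had 14249, 15538 and 5569 against 2132 and 2004. Sh2d2a, Tagap, Rasal1, Spry1 and Ptpn2 were the other members called higher. The cytokine signal inhibitor Socs3 was lower, with 327, 298 and 265 against 803 and 877. Dusp5, with 10981, 9855 and 6453 against 1803 and 1828, did not pass the test (adjusted p = 0.085). With only the compared groups fitted Dusp5 was called higher (adjusted p = 0.0054 in limma). There were 4 members called higher when TG6 replicate 1 or 2 was left out. With total scaling 3 were called lower, and without OT-1 replicate 3 there were 2.

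The proximal signalling list gave 2 of 30 members higher and 5 lower, with a median of 0.09. The members called lower encode parts of the complex that carries the signal from the receptor. These were Themis (log2 fold change -0.64 ± 0.09 SE), Lcp2 (-0.75), Lck (-0.37), Plcg1 (-0.43) and Lat (-0.26). Themis, which sets the signal threshold of positive selection, had 6819, 6320.3 and 6793 normalized counts in OT-1, 10805 and 9961 in TG6 and 11729.6 to 12169 in F5. Csk, the kinase that inhibits Lck, and Zap70 were higher by 0.34 and 0.33 on the log2 scale. Plcg1 and Lat lost the call under 9 and 10 of 17 alternatives. With total scaling no member was called higher and 6 were called lower, and with only the compared groups fitted 5 were called higher. Leaving out TG6 replicate 2 left 1 member called in each direction, and leaving out any other library of the comparison left 3 called lower and 0 to 2 higher.

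Of 11 genes that the study took as a preselection signature, 6 were called lower in OT-1 and none higher, with a median log2 fold change of -0.64. The study drew this list from microarrays of thymocytes without a transgenic TCR. The members called were Slc6a19, Tdrd5, Themis, Spo11, Plxnd1 and Wdr78. Plxnd1, a semaphorin receptor that guides thymocytes to the medulla, had 926, 1241 and 937 normalized counts in OT-1 and 2243 and 2157 in TG6. Spo11, known from meiotic recombination, had 423, 528 and 433 against 1100 and 1054. A second list, on recombination and the CD4+CD8+ stage before selection, gave 3 of 24 members lower and 1 higher. The members lower were Bcl2l1, which encodes the survival factor Bcl-xL of this stage (403, 369 and 421 against 1054 and 865), Dntt (753, 622 and 1037 against 2493 and 2213) and Satb1. Xrcc5 was higher. Without TG6 replicate 1 there was 1 member called lower, and without TG6 replicate 2 or with total scaling none was called higher, while 3 were with only the compared groups fitted. Rag1 had 33.1, 24.1 and 82.1 normalized counts in OT-1 and 249 and 124 in TG6, which was not called (adjusted p = 0.16). Without F5 late replicate 2 Rag1 was called lower (adjusted p = 0.049 in limma).

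Both chains of the coreceptor CD8 were lower in OT-1. Cd8b1 had 5544, 5434 and 5658 normalized counts in OT-1 and 13905 and 12254 in TG6, a 2.35-fold difference (adjusted p = 1.2e-05), and 10687 to 13372 in F5. Cd8a fell by 0.67 on the log2 scale. Among 25 coreceptor and lineage genes, 8 were called lower and 2 higher, with a median of -0.19. The other members lower were Satb1, Runx1, Tox, Patz1, Stat5b and Bcl11b, and the Ikaros family genes Ikzf1 and Ikzf3 were higher. Runx3, the factor of CD8 lineage choice, had 4658, 4298 and 3805 in OT-1 and 4143 and 5643 in TG6, and the lines overlapped. Gata3 was at 1735, 1106 and 2088 against 906 and 975 (adjusted p = 0.091). Without TG6 replicate 1 or 2 there were 3 members called lower, without OT-1 replicate 1 there were 5, and with only the compared groups fitted there were 4. In the first 3 of these settings and with total scaling 1 was called higher. Among 12 marker genes of CD4+CD8+ thymocytes and T cells, 4 were called lower (Cd8b1, Cd8a, Lck and Trac), and 2 without TG6 replicate 2.

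Genes of maturation and exit from the thymus went both ways, with 13 of 30 members called higher in OT-1, 5 called lower and a median of 0.50. S1pr1, the receptor for the lipid that draws mature cells into the blood, had 10220.1, 8896 and 8976 normalized counts in OT-1 and 1431 and 869.9 in TG6. Klf2, the transcription factor that switches on S1pr1, had 6967, 6808 and 4916 against 745 and 743. The integrin chain gene Itgb7 had 8216, 7943 and 7120.1 against 3149 and 3065. All 3 genes were without overlap between the lines, and the differences were 8.37-fold in S1pr1 and 8.26-fold in Klf2. Dapl1, Samhd1, Ms4a4b, S1pr4, Ly6c2, Cd44, Cd55, Cd53 and Itgae were among the other members higher. Tnfrsf1a, H2-Q7, Slfn1, Slfn2 and Itga4 were lower. Il7r, which sustains mature thymocytes, had 932, 1057 and 948 against 757 and 690.1 and was not called (adjusted p = 0.6). With only the compared groups fitted Il7r was called higher (adjusted p = 0.034 in limma). With TG6 replicate 2 left out, 9 members were called higher and 2 lower, and with OT-1 replicate 2 or 3 or TG6 replicate 1 left out, 3 were called lower.

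A list of chemokine receptors and other receptors of migration had 4 of 16 members called higher (the chemokine receptors Ccr8, Ccr4 and Cx3cr1, and S1pr1) and 1 called lower (Plxnd1). Ccr4, a receptor through which positively selected cells enter the medulla, had 5364, 4202 and 5547 normalized counts in OT-1 and 1691 and 1718 in TG6. Ccr9 had 21739, 19281 and 28159 against 27147 and 27105 and was not called. Cytokine receptor genes were called higher in 10 of 34 members and lower in 2, with a median of 0.49. Il6ra, the alpha chain of the interleukin 6 receptor, had 3774, 3243 and 3051 in OT-1 and 476 and 393 in TG6, a log2 fold change of 2.95 ± 0.30 SE (adjusted p = 5.6e-07). Il17re, Il17rb, Il17rc, Crlf2, Ifnar2, Il1r1, Il21r, Il27ra and Tgfbr2 were also higher, while Il1rl2 and Il12rb2 were lower. With TG6 replicate 1 or 2 left out, 5 and 4 cytokine receptor genes were called higher, and with total scaling 6. The 2 lower became 1 without OT-1 replicate 1 or 2 or TG6 replicate 1 or 2.

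Of 30 effector and innate-like genes tested, 11 were called higher in OT-1 and none lower, with a median of 0.84. The granzyme gene Gzma had 944, 585 and 818 normalized counts in OT-1 and 61.7 and 63.9 in TG6. Nkg7, a protein of cytotoxic granules, had 1608, 1491 and 1642 against 628 and 517, and Batf had 234, 205 and 241 against 95.9 and 94.4. Maf, Ctsw, Cst7, Prf1, Klrd1, Ly6c2, Cd44 and Tyrobp were the other members. Eomes, a regulator of such genes, did not pass the test (8.27, 6.1 and 6.15 against 6.79 and 3.22). Zbtb16, which encodes the innate lineage factor PLZF, had at most 2.95 in any of the 5 libraries and was not tested. Without TG6 replicate 1 and without TG6 replicate 2, 6 and 5 members were called higher.

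Markers of other cells moved with some of these genes, and their part in the results was not tested. The cells were sorted as CD4+CD8+CXCR4-CCR7+, and OT-1 mice are Rag2KO, F5 mice Rag1KO and TG6 mice Rag-sufficient. Of 8 gamma delta T cell markers, 6 were tested and 4 were called higher in OT-1 (Trdc, Sox13, Tcrg-C1 and Tcrg-C4). Their summed level was 11074 to 13029 in OT-1, 2029 to 3386 in TG6 and 6539 to 8301 in F5. Most of it was Trdc, whose TCR delta locus lies inside the TCR alpha locus, with 8733, 8799.7 and 8727 in OT-1 and 3138 and 1814 in TG6. Of 8 NK cell markers 3 were tested, 2 were called higher (Gzma and Klrd1), and the defining markers Ncr1, Klra4 and Klra8 were at 0 in all 5 libraries. The NK sum was 627 to 976 in OT-1 and 70.1 to 77.7 in TG6. Of 8 macrophage markers tested, 3 were called higher, among them C1qa and C1qb, which had at most 15.7 in OT-1 and were at 0 in TG6. None of the 8 was called without OT-1 replicate 2, TG6 replicate 1 or TG6 replicate 2, and 1 was without OT-1 replicate 3. B cell markers gave 1 of 7 higher (Ighm, 6094, 5286 and 7262 against 2689.6 and 2641) and 1 lower (Blnk), and dendritic cells gave 1 of 7 lower (Flt3). None of 6 thymic epithelial and 5 erythroid markers was called, no neutrophil marker passed the filter, and of 8 double-negative thymocyte markers Hes1 was the 1 called. Leaving out 1 OT-1 library added a call among the B cell, thymic epithelial and double-negative markers (replicates 2, 3 and 1). In the regulatory T cell and CD4 lineage list, 1 of 5 members was called, Foxp3, which was lower with 10.1, 10.6 and 7.9 against 41.8 and 46.9, whereas the sum of the list was 1099.7 to 1461 in OT-1 and 1099 to 1170.2 in TG6, and the lines overlapped. Flt3 was not called without OT-1 replicate 1 or 2 or TG6 replicate 1 or 2, and neither Foxp3 nor Klrd1 was without TG6 replicate 2. Of 12 genes known to rise during tissue dissociation, Fos, Zfp36 and Ier2 were called higher and Dnajb1 lower, and their sum was 21525 to 24082 in OT-1, 11908 to 13353 in TG6 and 13382 to 35399.9 in F5. The 3 called higher became 1, and Dnajb1 was not called, without OT-1 replicate 1 or 2 or TG6 replicate 1 or 2, while 7 were called higher with only the compared groups fitted.

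Part of the genes of the cell cycle were called higher in OT-1. In the list for G2, mitosis and cytokinesis, 23 of 50 members were called higher and 1 lower, with a median log2 fold change of 1.58. Every OT-1 library lay above both TG6 libraries in 43 members, and in 27.8% of all genes tested. The proliferation marker Mki67 had 1966, 1123 and 2011 normalized counts in OT-1 and 195 and 196 in TG6. Top2a, the topoisomerase that untangles replicated DNA, had 1808, 1042 and 1839 against 264 and 213, and the cyclin gene Ccnb2 had 238, 183 and 218 against 35.2 and 26.5. The highest TG6 value of each gene lay under the lowest OT-1 value, and OT-1 replicate 2 was the lowest of its group in all 3. The 1 member called lower was Kif23, a kinesin of the midbody, with 886, 882 and 1006 against 1567 and 1689. In the list for DNA replication, 14 of 47 members were called higher and none lower, with a median of 0.87. E2f1, the transcription factor of S phase genes, had 475, 413 and 352 against 99.7 and 101, and Lig1, Pole, Mcm5, Mcm6 and Gins1 were higher by 1.29 to 2.36 on the log2 scale.

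The counts for the cell cycle depended on single libraries. With TG6 replicate 1 or 2 left out, 4 and 2 members of the G2 and mitosis list and 4 and 8 of the replication list were called higher, and Kif23 was not called without TG6 replicate 2. With OT-1 replicate 1, 2 or 3 left out, 10, 15 and 9 of the G2 and mitosis list were. F5 replicate 2 stood apart in its group, with 3139 normalized counts of Mki67 where the lowest F5 library had 109, and it enters the estimate of the spread. Without it 33 members of the G2 and mitosis list were called higher, and 37 in a fit of the OT-1 and TG6 late libraries alone. In that fit 29 members of the replication list were called higher and 1 lower.

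The promoters of 2 cell cycle genes are shown because a CCAAT box, the site bound by the factor NF-Y, is common upstream of such genes. The 120 bases before the RefSeq start are printed 5′ to 3′ on the strand of the gene, with CCAAT, or ATTGG where it lies on the other strand, in capitals. They are Ccnb2 (GRCm38.p6, chr9:70421555-70421674, minus strand) and Top2a (chr11:99024190-99024309, minus strand).
Ccnb2: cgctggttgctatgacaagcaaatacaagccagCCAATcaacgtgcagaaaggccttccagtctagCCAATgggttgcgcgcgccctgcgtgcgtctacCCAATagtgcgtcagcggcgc
Top2a: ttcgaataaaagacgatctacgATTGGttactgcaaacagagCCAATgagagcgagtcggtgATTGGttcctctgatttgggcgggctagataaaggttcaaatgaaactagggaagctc
Over the 250 bases before the start, on both strands, CCAAT was present in 3098 of 8316 tested genes with a single RefSeq promoter (37.3%). It was present in 29 of 38 such members of the G2 and mitosis list (76.3%), in 14 of the 17 that were called higher (82.4%), in the 1 that was called lower, and in 19 of 31 in the replication list (61.3%). A match describes the letters only.

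Among mitochondrial transcripts and genes of energy metabolism, a part of each list was called higher. All 15 mitochondrial transcripts tested had a log2 fold change above 0, 9 were called higher and none lower, with a median of 0.69. mt-Rnr1, the small ribosomal RNA of mitochondria, had 5471, 5287 and 5779.9 normalized counts in OT-1 and 1413 and 1412 in TG6 (log2 fold change 1.96 ± 0.19 SE). mt-Co1, which encodes a subunit of cytochrome c oxidase, had the largest difference of levels of any gene called higher, with 228093, 228669 and 207565 against 143911 and 138042, but with quantile normalization its log2 fold change was 0.00 and it was not called (adjusted p = 1.0). With TG6 replicate 1 or 2 left out 3 and 2 of the 15 were called higher, and with quantile normalization 4. Mitochondrial transcripts made up 2.98 to 3.58% of all normalized counts in OT-1, 2.31 and 2.12% in TG6 and 1.51 to 2.16% in F5. Among the nuclear genes for oxidative phosphorylation, 26 of 77 were called higher and none lower, with a median of 0.45. Cox7a2l, a factor that joins respiratory complexes, had 5027, 4838 and 5273 against 2784 and 2419, and Uqcrh had 2280.2, 2226 and 2432 against 1400.4 and 1293. With total scaling 16 of the 77 were called higher, with TG6 replicate 1 or 2 left out 9 and 8, with OT-1 replicate 1 left out 15, and with only the compared groups fitted 43.

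In glycolysis and the pentose phosphate pathway, 11 of 38 members were called higher and 3 lower. The lactate dehydrogenase genes went in opposite directions. Ldha had 10064, 9508 and 10519 normalized counts in OT-1 and 5497 and 5855 in TG6, whereas Ldhb had 841, 848 and 841 against 1972 and 2050.1. Pkm, Gpi1, Pgd and Aldoa were higher by 0.46 to 0.71 on the log2 scale, and Eno2 and Pdk1 were lower. With total scaling 4 members were called higher and 3 lower. With OT-1 replicate 1 or 3 left out 7 and 6 were called higher, and with TG6 replicate 1 or 2 left out 5 and 4, and 1 was called lower without TG6 replicate 2. Of 27 genes of fatty acid synthesis and oxidation, 4 were called higher (Cpt1a, Acadl, Elovl5 and Acaca) and none lower. They became 1 without TG6 replicate 1 or 2 and 2 without OT-1 replicate 1 or 2, and with total scaling 2 were called higher and 3 lower. The main fit called 14.8% of the fatty acid list, against 15.5% of all genes tested. Cpt1a, which brings fatty acids into mitochondria, had 1148, 1339 and 2577 against 182 and 467. In the list for sterol synthesis, 5 of 32 were called lower and 1 higher (Mvd). Among the 5 were Srebf1, Msmo1, Dhcr7 and Abcg1, which encodes a cholesterol exporter and not an enzyme of synthesis. The 5 became 2 without OT-1 replicate 1 or 2. The lower count also fell without TG6 replicate 1 or 2, and Mvd lost the call without TG6 replicate 2.

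Genes for ribosome assembly, with Myc and its partners, were called higher in 19 of 49 members, none lower, with a median of 0.46. Npm1, a nucleolar chaperone, had 10279, 10738 and 10370.3 normalized counts in OT-1 and 5739.8 and 5899 in TG6, and Polr1a, the large subunit of RNA polymerase I, had 1936, 1934 and 1732 against 1321 and 1239.5. Myc itself had 469.8, 419 and 844 against 492 and 404, and the lines overlapped. The elongation factor genes Eef1a1 and Eef2 had 1.72-fold and 1.86-fold higher levels. With quantile normalization Eef1a1 had a log2 fold change of 0.00 and was not called (adjusted p = 1.0), while Eef2 was called under every alternative. With total scaling 8 members were called higher and 1 lower, and with TG6 replicate 1 or 2 left out 3 and 2 were called higher, with OT-1 replicate 1, 2 or 3 left out 8, 7 and 12. Mitochondrial ribosomal proteins were called higher in 17 of 77 and lower in 2, aminoacyl-tRNA synthetases in 5 and 2 of 37, and proteasome subunits in 4 and 0 of 38. In either direction this was 24.7%, 18.9% and 10.5% of the lists, against 15.5% of all genes tested. These 3 lists gave 7, 1 and 2 higher with total scaling, and 3, 0 and 2 without TG6 replicate 2. They gave 7, 1 and 3 without OT-1 replicate 1, 13, 1 and 4 without OT-1 replicate 2, 7, 2 and 2 without OT-1 replicate 3, 4, 1 and 3 without TG6 replicate 1, and 18, 9 and 14 with only the compared groups fitted. The 2 synthetases called lower became none without OT-1 replicate 3 or TG6 replicate 2 and 1 without OT-1 replicate 1, without TG6 replicate 1 or with only the compared groups fitted, and the 2 mitochondrial ribosomal proteins became 1 without OT-1 replicate 1 or 2 or TG6 replicate 1 or 2. Among transporters of amino acids and other nutrients, 2 of 30 were higher (Slc38a1 and Slc3a2) and 5 lower, the largest fold change being that of Slc6a19. The 2 became 4 without OT-1 replicate 3, and the 5 became 3 without TG6 replicate 1.

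**Figure D2:**
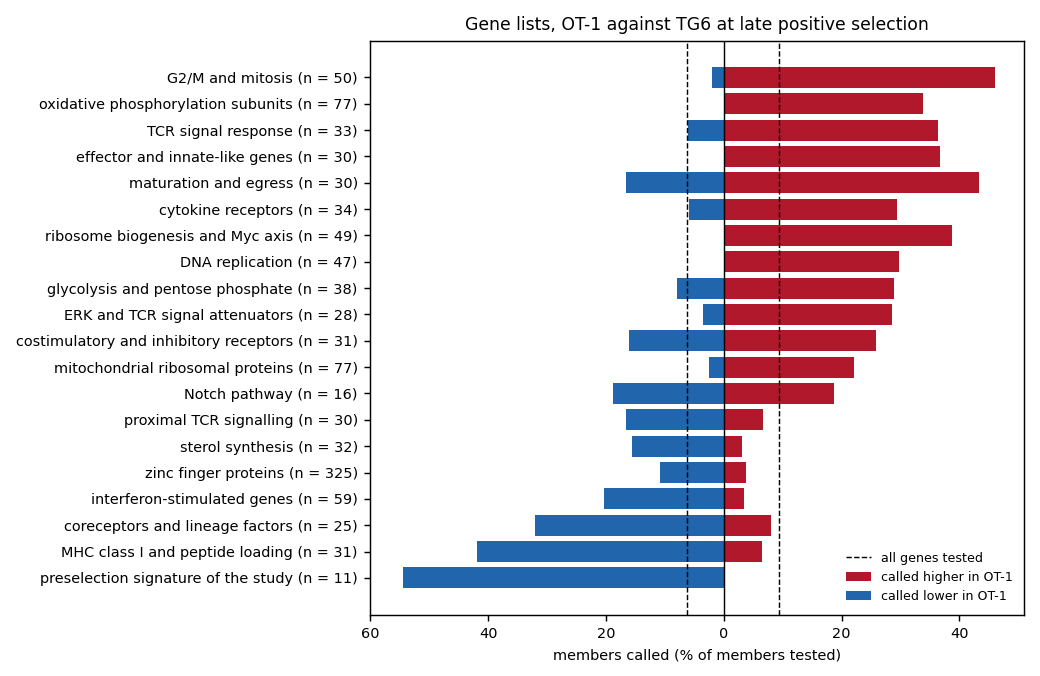
Share of the members tested in 20 gene lists that were called higher (right) or lower (left) in OT-1 at late positive selection, in percent, with the number tested in brackets and dashed lines at the shares over all genes tested (9.34% higher and 6.21% lower). The G2 and mitosis list has the longest bar to the right among those drawn, and the study's preselection signature the longest to the left.

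Genes of MHC class I and peptide loading were called lower in OT-1 in 13 of 31 members and higher in 2, with a median of -0.30. The classical genes H2-D1 and H2-K1 were among them. H2-D1 had 5828, 7005 and 5293 normalized counts in OT-1 and 12913 and 14973 in TG6, and 4542 to 5750.5 in F5. H2-K1 had 5515, 6280.3 and 4663 against 6826 and 9176 (adjusted p = 0.044 in limma). H2-K1 lost the call under 7 of 17 alternatives, whereas H2-D1 was called under every one. Nonclassical Qa genes showed larger differences, such as H2-Q6 with 14, 7.06 and 18 against 1304 and 1907. TG6 mice carry the b and the d haplotype whereas the reference genome has b, and reads can be shared among near-identical class I copies, so the value of a single H2 gene is uncertain. Members outside the class I copies were lower as well. The peptide transporter genes Tap1 and Tap2 had log2 fold changes of -0.78 ± 0.17 SE and -0.62 ± 0.09 SE, and Nlrc5, the transactivator of class I genes, had 3146, 3673 and 2809 against 6211 and 7956. B2m, which encodes the light chain common to class I molecules, had 10864, 10752 and 11274 against 14058 and 15809 and was not called (adjusted p = 0.29). With only the compared groups fitted B2m was called lower (adjusted p = 0.017 in limma). Erap1 and H2-Q2 were higher, and neither was called with total scaling, without OT-1 replicate 1 or without TG6 replicate 1 or 2. H2-Q2 was not called without OT-1 replicate 3 either, nor Erap1 without OT-1 replicate 2. With TG6 replicate 2 left out, 7 members were called lower. Over the H2 complex from H2-K1 to H2-M3 (chr17:33996017-37274484), 32 of 146 genes tested were called lower and 2 higher.

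Interferon-stimulated genes were called lower in 12 of 59 members and higher in 2, with a median of -0.26. Igtp, an interferon-induced GTPase, had 1052, 989 and 1124 normalized counts in OT-1, 2506 and 3457 in TG6 and 787 to 1057 in F5. Gbp2, a guanylate-binding protein, had 650.1, 647 and 758 against 1288 and 2144. The GTPase gene Tgtp2 had 778, 494 and 757 against 1389.6 and 2061. TG6 replicate 2 was the higher of the TG6 libraries in all 3 genes, and the lines did not overlap. Gbp4, Gbp8, Ifi47, Ifit1bl1, Ifit2, Iigp1, Slfn1 and Stat2 were among the others lower, and Phf11b and Ifi203 were higher. With TG6 replicate 2 left out 3 members were called lower and 1 higher, and with TG6 replicate 1 left out 9.

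The promoters of Igtp (GRCm38.p6, chr11:58199436-58199555, plus strand) and Tgtp2 (chr11:49064213-49064332, minus strand) are shown because each holds an element of the kind bound by interferon-activated factors, GAAA followed by any 2 bases and GAAA, in capitals.
Igtp: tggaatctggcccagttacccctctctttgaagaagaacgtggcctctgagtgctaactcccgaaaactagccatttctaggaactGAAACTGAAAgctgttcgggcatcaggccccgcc
Tgtp2: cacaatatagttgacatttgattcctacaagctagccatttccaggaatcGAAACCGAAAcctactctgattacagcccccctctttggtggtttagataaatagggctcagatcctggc
The element was present on either strand in 224 of the 8316 promoters (2.69%), in 17 of 31 for the interferon list (54.8%) and in 4 of the 6 of those called lower (66.7%). The 1 member called higher with a single RefSeq promoter, Phf11b, also held it. Tgtp2 has a near-identical copy, Tgtp1, with which it may share reads.

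**Figure D3:**
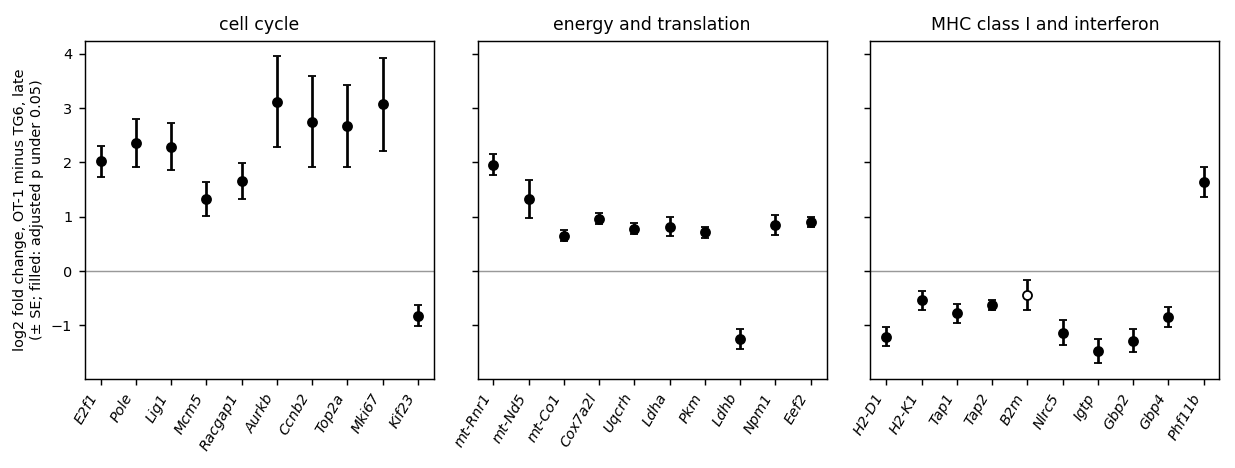
Log2 fold change of OT-1 minus TG6 at late positive selection with its standard error, for 10 genes each of the cell cycle, of energy metabolism and translation, and of MHC class I and the interferon response. Filled points had an adjusted p-value under 0.05. Kif23, Ldhb and Phf11b lie on the other side of 0 from the rest of their panel, and B2m is the open point.

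Notch pathway genes moved in both directions. The receptor genes Notch1 and Notch3 were lower, with 3923, 2830.3 and 2813 against 6536 and 8270.2 for Notch1 and 492, 484 and 418 against 1199 and 1161 for Notch3. Rbpj, the DNA-binding partner of Notch, was lower by 0.47 on the log2 scale. The target Hes1 and the Fringe genes Lfng and Mfng, which modify Notch receptors, were higher, which gave 3 of 16 members in each direction. AP-1 and Bach factors gave 4 of 16 higher (Batf, Fos, Maf and Fosl2). NF-kB and NFAT factors gave 4 of 28 higher (Nfkbid, Traf3, Nfkb1 and Nfatc2), with none lower in either list. In the NF-kB and NFAT list 14.3% of members were called, against 15.5% of all genes tested. With only the compared groups fitted 7 AP-1 and Bach factors were called higher. The 4 NF-kB and NFAT factors became 2 without OT-1 replicate 2 or TG6 replicate 1 or 2, and 3 were called lower with total scaling. Tnfaip3, an inhibitor of NF-kB, had 25521, 28948 and 16500.2 in OT-1 and 5024 and 6089.7 in TG6 and did not pass the test (adjusted p = 0.054), but was called under 5 of 17 alternatives.

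In the Bcl-2 family, 3 of 15 members were called higher, and all 3 promote cell death. Bcl2l11, which encodes BIM, had 4762, 6202 and 3168 normalized counts in OT-1 and 1316 and 1327 in TG6. Bbc3, which encodes PUMA, had 441, 594 and 645 against 60.1 and 85.5, and Bid was higher by 0.89 on the log2 scale. The member called lower was Bcl2l1. Bcl2 had 2409, 2622 and 2282 against 3090.1 and 2872 and was not called. Costimulatory and inhibitory receptors were called higher in 8 of 31 and lower in 5. Btla, an inhibitory receptor, had 2579.9, 2803 and 2495 against 622 and 486, and its ligand gene Tnfrsf14 was lower, with 464, 405 and 391 against 775 and 864. Tigit and Cd226, whose products share a ligand, differed in direction, with 507, 447 and 371 against 52.9 and 30.5 for Tigit and 1137, 1038 and 1349 against 3361 and 3126 for Cd226. The 5 receptors called lower became 2 without TG6 replicate 1, 1 without TG6 replicate 2, and 3 without OT-1 replicate 2 or 3.

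Among enzymes that build surface sugars, 6 of 32 were higher and 2 lower, and 2 were higher without TG6 replicate 2. None was called lower without TG6 replicate 1, and 1 was without OT-1 replicate 2 or TG6 replicate 2. The sialyltransferase gene St6gal1 had 7709.5, 6826 and 8345 normalized counts in OT-1 and 4817 and 4589 in TG6, whereas Cmah, which makes N-glycolylneuraminic acid, was lower by 0.71 on the log2 scale (adjusted p = 0.08 in limma without TG6 replicate 1). Integrin chains were called higher in 4 of 22 members, among them Itgb3 (6633, 5905 and 6620.1 against 3050.4 and 3031), and lower in 3 (Itga4, Itga5 and Itga6), and 2 were called higher without TG6 replicate 2 and 5 lower with total scaling. Of 30 chromatin and DNA methylation genes, Dnmt3b, Hdac5 and Chd3 were higher and Ezh1 lower, which was not called without TG6 replicate 1 or 2, while 4 were called lower with total scaling. None of 10 E protein and Id genes was called, but 1 was called lower with total scaling and 1 higher with only the compared groups fitted. Of 8 Gimap GTPases, Gimap9 was the 1 called, lower, and was not called without TG6 replicate 2. Histone genes gave 5 higher and 2 lower of 71. These became 3 and 0 without TG6 replicate 1 or 2, 4 and 0 without OT-1 replicate 1 or 2, 5 and 1 without OT-1 replicate 3, and 9 and 4 with only the compared groups fitted. Of 325 Zfp genes, 35 were called lower and 12 higher with a median of -0.20, counts that became 70 and 7 with total scaling, 8 and 2 without TG6 replicate 2 and 11 and 1 without TG6 replicate 1. Without OT-1 replicate 1 or 2, 22 and 18 Zfp genes were called lower and 4 higher in each case, and without OT-1 replicate 3, 7 were called higher. The main fit called 13.3% of the chromatin list, 12.5% of Gimap, 9.86% of histone and 14.5% of Zfp genes, against 15.5% of all genes tested.

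Within 5 Mb of Rag2, 10 of 43 genes tested were called (23.3%), 5 in each direction. They included Trim44 (log2 fold change -0.53), Rcn1 (1.80), Nat10 (0.61) and Cd44 (0.83). In a stretch of the same chromosome around Ltk, chosen after its values were seen, 26 of 97 genes were called (26.8%), 13 in each direction. Among them, Ltk, Tyro3 and Ehd4 were higher and Slc28a2, Jmjd7 and Pla2g4b lower.

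The difference between OT-1 and TG6 was not the same at every stage. Against early positive selection (CD4+CD8+CXCR4+CCR7-, 3 libraries in each line), the difference changed in 334 genes (2.04%), of which 155 were higher and 179 lower at the late stage. Gimap4, a GTPase of maturing T cells, had 2236 to 2717 normalized counts in OT-1 and 92.4 to 116 in TG6 at the early stage, and 6705 to 8827 against 5137 and 5618 at the late stage. The log2 fold change thus went from 4.51 to 0.50 (interaction adjusted p = 5.7e-09). Itgb3 went from 3.97 to 1.07, and Il7r, uncalled at the late stage, from 3.48 to 0.44. For Cd6 the difference was larger at the late stage, with 0.30 at early and 1.33 at late positive selection. In some genes the difference had opposite signs at the stages. Nlrc5 went from 1.18 to -1.14, Il12rb2 from 1.48 to -0.96, and Kif23 from 0.65 to -0.82.

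Against mature CD8SP thymocytes (3 libraries in each line), the difference changed in 192 genes (1.17%), 149 higher and 43 lower at the late stage. Pcsk1 had 13.7 to 23.4 normalized counts in OT-1 and 538 and 637 in TG6 at the late stage, and 137 to 185 against 16.2 to 137 at the mature stage (interaction log2 fold change -6.45 ± 0.73 SE, adjusted p = 0.00024). Plxnd1 went from -1.10 at the late stage to 0.96 at the mature stage. The rise in OT-1 was smaller at the mature stage in Plac8 (4.72 and 1.53), Eef2 (0.90 and 0.12) and Cox7a2l (0.96 and 0.00), and also in Cd6 (1.33 and 0.50, interaction adjusted p = 0.013) and Cd5 (2.10 and 0.97, interaction adjusted p = 0.046). The count against the mature stage was 532 when TG6 mature CD8SP replicate 3 was left out, and 72 when TG6 late replicate 2 was left out. Without TG6 late replicate 1 or 2, the count against the early stage was 135 and 111.

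**Figure D4:**
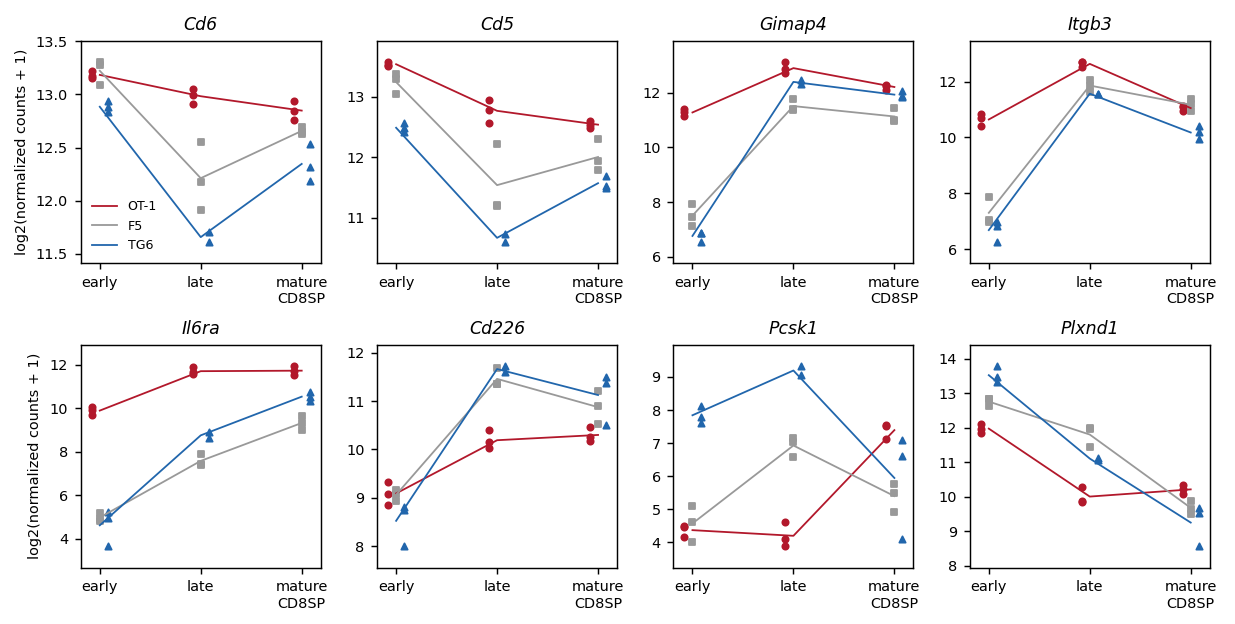
Log2 of normalized counts plus 1 for 8 genes at the early, late and mature CD8SP stages in OT-1 (circles), F5 (squares) and TG6 (triangles), with 1 point for each library and lines through the group means. The OT-1 and TG6 lines of Gimap4 and Itgb3 stand furthest apart at the early stage, those of Cd6 and Cd226 at the late stage, and those of Pcsk1 and Plxnd1 cross between the late and mature stages.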

How the data were processed

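RNA was sequenced from sorted thymocytes. The authors trimmed reads with Trimmomatic (version 0.32), aligned them to mm10 with Bowtie2 (version 2.3.2), quantified genes with RSEM (version 1.2.31) and deposited a signal value per gene and library, namely gene counts scaled with DESeq2's median of ratios. RSEM assigns reads shared by similar genes by estimation, so near-identical copies are uncertain. Strand was not given in the sources used here.

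Log2(value + 1) was fitted with limma (version 3.58.1, R 4.3.3), 1 mean for each of 9 groups over 26 libraries, 17 residual degrees of freedom and a variance trend. P-values were adjusted by Benjamini-Hochberg over 16372 genes. Fold changes on this scale understate low genes. The difference between stages was tested as an interaction. The fit was tested on simulated data. The smallest number of libraries in a group, 2, limits the precision.

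Named genes were, for each direction, the 15 largest fold changes among called genes without overlap and with a mean of at least 100 in the higher group (leaving out TCR and immunoglobulin segments, unnamed clones, cytosolic ribosomal proteins and ion channels, 7 genes passed over among higher and 17 among lower ones), the 6 largest differences of means, per list up to 6 called and 3 uncalled genes, the sorting markers, and genes of the stage comparisons and windows. Bcl11b, Ccnb2, Cd53, Cd55, Cst7, Dusp10, Dusp5, Egr1, Eno2, Erap1, Gata3, H2-K1, H2-M3, H2-Q2, Ifi203, Ifi47, Ifit2, Ikzf3, Il12rb2, Il1r1, Il21r, Il27ra, Il7r, Itgae, Klf2, Lat, Mki67, Ms4a4b, Myc, Nkg7, Nlrc5, Nr4a1, Patz1, Pdk1, Prf1, Ptpn2, Runx3, S1pr4, Slfn1, Slfn2, Spry1, Stat2, Stat5b, Tap1, Tgfbr2, Tgtp2, Tnfrsf14, Top2a, Tyrobp, Xcl1 and Zbtb16 were chosen after their values were seen. The members and lists were chosen with earlier results of these data known. A few items are not reported here. Positions are from GENCODE vM21. Alternatives were pseudocounts of 0.1 and 5, other filters, total scaling, quantile normalization, no trend, only the groups compared, replicate blocks and leaving out single libraries of OT-1 and TG6 and 1 of F5.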

Additional observations from a re-analysis of the deposited data

Results flagged for a closer look

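The difference between OT-1 and TG6 was not the same at late as at early positive selection in 334 genes, by the interaction term of limma with Benjamini-Hochberg adjustment. Among the genes named above, the signed log2 difference of OT-1 minus TG6 was higher at the late than at the early stage in Cd6 (1.03), Ddr1 (2.58), Gbp8 (1.2), Ighm (1.38), Ikzf3 (1.14), Il17rc (5.95) and Il17re (3.22). It was lower at the late stage, with the change in brackets, in Aldoa (-0.67), Bcl2 (-1.50), Btla (-1.79), Ccr4 (-1.15), Ccr7 (-2.20), Cd226 (-2.04), Cd53 (-1.53), Chd3 (-0.97), Ctsw (-1.49), Fah (-3.53), Flt3 (-2.81), Gbp2 (-1.30), Gimap4 (-4.01), Gimap9 (-0.85), H2-Q10 (-1.29), Ifi47 (-1.18), Il12rb2 (-2.45), Il6ra (-2.32), Il7r (-3.05), Itga5 (-0.64), Itgb3 (-2.90), Kif23 (-1.47), Nlrc5 (-2.32), Nrg2 (-1.88), Phf11b (-1.55), Prss2 (-3.85), Samhd1 (-2.18), Slfn1 (-2.0) and Tox (-1.04).

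Between late positive selection and mature CD8SP thymocytes the difference changed in 192 genes. It was higher at the late stage in Cd5 (1.13), Cd6 (0.82), Cox7a2l (0.96), Eef1a1 (0.64), Eef2 (0.78), Ikzf2 (1.14), Il6ra (1.75), Ly6c2 (3.42), Mvd (0.79), Plac8 (3.18), Rcn1 (1.94), Uqcrh (0.59) and mt-Rnr1 (1.32), and lower in Ddr1 (-2.42), F13a1 (-1.59), Itga5 (-0.92), Kif23 (-1.71), Pcsk1 (-6.45) and Plxnd1 (-2.06). The comparisons of stages share the late libraries. Groups held 2 or 3 libraries, and single outlying libraries were not tested for.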

How the results depend on the processing

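Each OT-1 and TG6 library was left out in turn, those of the early and mature stages only for the comparisons of stages. Of the F5 libraries only late replicate 2 was left out, chosen after seeing the data. The genes called then numbered 1100 to 2561, those higher in OT-1 716 to 1557 and those lower 384 to 1004. The change of the difference was called in 111 to 355 genes from early to late and in 72 to 532 from late to mature. Total scaling gave 1715 genes lower, and fitting the compared groups alone gave 734 genes from early to late. The other settings kept each of these counts within 1.5 times, apart from the block by mouse below.

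Replicate numbers do not pair mice across the lines, and libraries with the same number deviated from their group means with correlations of -0.00918 and 0.00452. With the replicate number as a block 2715 genes were called, Tnfaip3 among them, and Lat, Plcg1, Ptpn2 and Stat5b lost the call. With a replicate block by mouse, which assumes that libraries of a line with the same number came from 1 mouse, 700 genes were called from early to late and 483 from late to mature. At late positive selection Tnfaip3 was then called, while Acaca, Bcl11b, C1qa, Flt3, H2-K1, Lat, Plcg1, Ptpn2, Tgtp2 and Tyrobp lost the call.

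Of 231 named genes tested, 215 were called. Of these, 109 were called under every alternative that tested them (15 to 17 for a gene), while 106 lost the call under at least 1. Among the genes not called, 7 gained the call under at least 1 alternative (B2m, Ccr9, Dusp5, Gata3, Il7r, Rag1 and Tnfaip3). None of the 215 was called in the opposite direction or had a fold change of the other sign, and Eef1a1 and mt-Co1 had 0.00 with quantile normalization. The causes of these changes were not tested. With 2 TG6 libraries and no recoverable read counts, the depth that each library reached is unknown and small differences may be missed.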
